A study of Acomys cahirinus and Mus musculus with 6 samples.

Results

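The 34 genes described here encode the enzymes and carriers that turn glucose into lactate, together with kinases, oxygen sensors and induced genes of the response to low oxygen. They were taken by name from a list that was chosen with earlier results of these data known. All 34 of 34 were found among the 20381 genes of the count table. Cells take up glucose through carriers of the Slc2a family, split it in the glycolytic path, and either burn the resulting pyruvate in mitochondria or reduce it to lactate, which leaves through carriers of the Slc16a family. When oxygen is short, prolyl hydroxylases such as Egln1 and Egln3 no longer mark the factor HIF1A for destruction, and HIF1A then induces most glycolytic genes together with targets such as Car9, Bnip3 and Ankrd37. Healing skin, neutrophils and cartilage are known for their reliance on glycolysis.

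The cells came from healing ear punch wounds, and RNA was counted in droplets as unique molecular identifiers (UMIs) per gene and cell. In wild-type spiny mice (Acomys cahirinus), wounds were treated with an inhibitor of ERK, of ErbB2 or of the FGF receptors FGFR1/2/3, or with the vehicle DMSO, injected between day 12 and day 15. In CD1 laboratory mice, beads carrying FGF2 and NRG1, or PBS beads, were implanted on day 10. FGF2 and NRG1 act through FGF and ErbB receptors, whose signals run down to ERK, so the study set blocking against feeding of the same signal. Each group was 1 library, and neither the number of animals behind it nor their age is given in the sources used here.

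With 1 library per group there was no test, and every difference below compares 2 libraries. Levels are UMI counts of a cell class scaled to 1000000 UMIs of that class (CPM). Each ratio is the log2 of CPM in the treated library over CPM in its control, with 1 UMI added to each sum, and the brackets after it hold a 95% interval that covers counting error only. A gene is called higher or lower from 1.5-fold when it has at least 30 UMIs over both libraries. The same share over all genes tested is given as the background. All 3 inhibitor comparisons share the DMSO library. The reads come from the 3′ end of transcripts, and mouse names were used for both species, so levels are compared neither between genes nor between species.

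The libraries held 631 to 15363 cells and 7429819 to 70058081 UMIs, and the members took 0.296% to 0.46% of them. Of all cells, 368 carried a barcode also seen in another library, among them 7 fibroblasts, 9 chondrocytes, 18 cells of cluster 7 and 62 suprabasal cells. Fibroblasts (cluster 32) were led by collagen and other fibroblast markers in 78.9% to 100% of cells per library. Suprabasal cells are the 9 annotated clusters that kept keratinocyte leading genes. They were led by their own markers in 95.7% to 98.6% of spiny mouse cells, but in 62.0% with FGF2 and NRG1 and 58.8% with PBS. Cluster 7 was annotated as circulating monocytes, yet 3 of its 10 leading genes were neutrophil markers, so it is given by number. Neutrophil markers led 97.4% and 97.7% of its cells in the bead libraries, 98.2% with the ERK inhibitor, 41.7% with the ErbB2 inhibitor, 79.8% with the FGFR inhibitor and 34.8% with DMSO. The defining markers Retnlg and Ly6g had 0 UMIs in all 4 spiny mouse libraries. Chondrocytes (cluster 25) had cartilage collagens among their leading genes. In the spiny mouse, however, more UMIs came from cartilage markers than from any other list in only 18 of 136 chondrocytes with the ErbB2 inhibitor, 20 of 85 with the FGFR inhibitor and 32 of 298 with DMSO. Suprabasal keratinocyte markers led 105 of these cells with the ErbB2 inhibitor and 220 with DMSO, although Col2a1 had a UMI in 54.4% and 59.7% of them. The ERK inhibitor library held 5 fibroblasts and 5 chondrocytes, too few for a ratio.

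**Figure D1:**
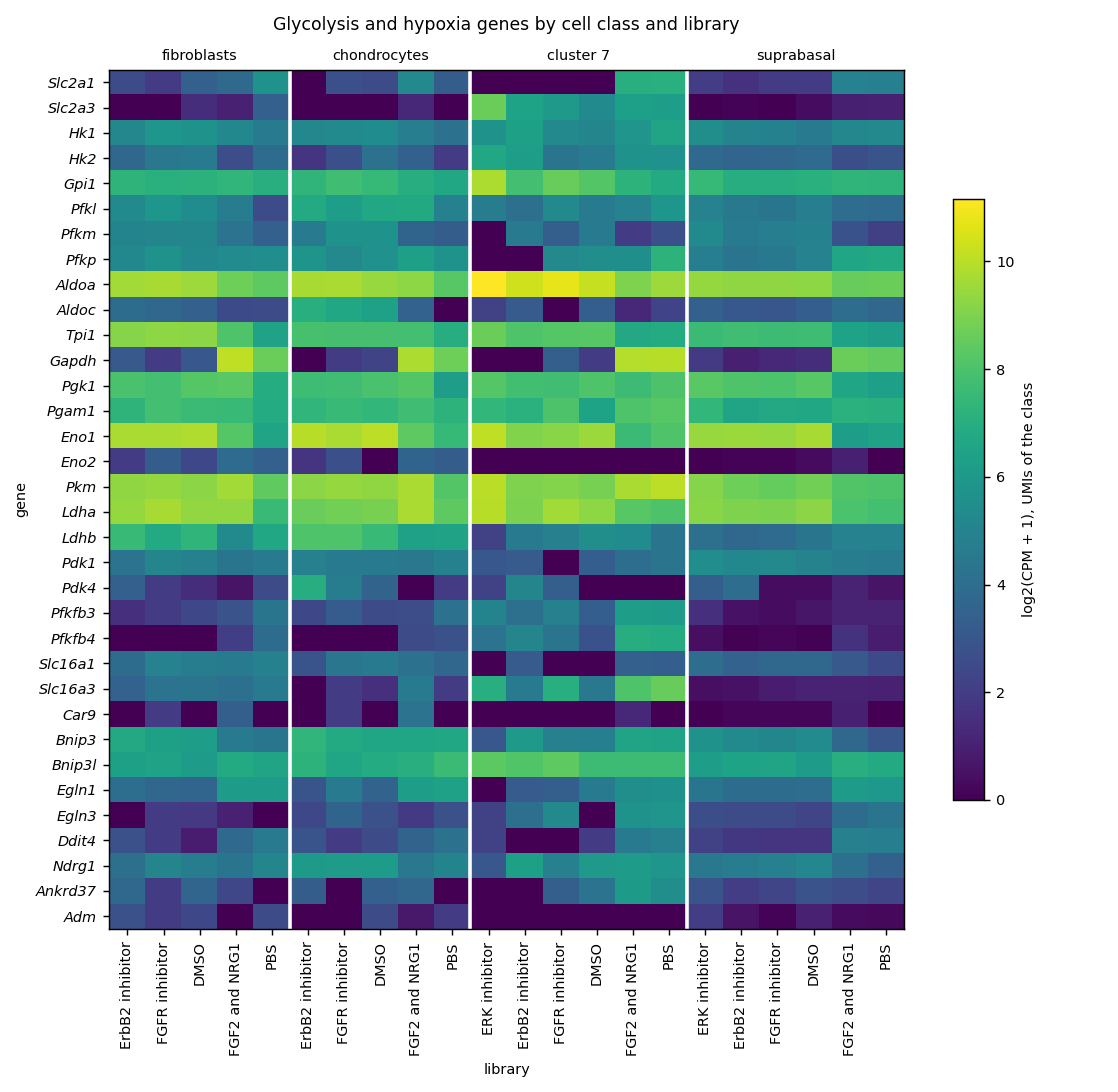
Level of each of the 34 genes (rows, from glucose carriers at the top to low-oxygen targets at the bottom) in 4 cell classes of each library (columns), as log2(CPM + 1), with fibroblasts and chondrocytes of the ERK inhibitor library, 5 cells each, left out. Slc2a3, Pfkfb4 and Slc16a3 are bright in cluster 7, Aldoc in spiny mouse chondrocytes, and Gapdh is dark in every spiny mouse column.

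The glucose carriers marked out cluster 7. Slc2a3, the high-affinity carrier of neurons and white blood cells (chromosome 6, 122727809 to 122801640 in GENCODE vM21 on GRCm38), stood at 405 CPM there with the ERK inhibitor, 89.5 with the ErbB2 inhibitor, 65.8 with the FGFR inhibitor and 39.1 with DMSO, and at 77.8 with FGF2 and NRG1 and 75.7 with PBS. That was the highest level of any class in each of these libraries apart from DMSO, where dendritic cells had 41.1 CPM. In suprabasal cells it stayed between 0 and 1.01 CPM. Slc2a1, the carrier found in most tissues and a HIF1A target (chromosome 4, 119108711 to 119137983), had 131 CPM in mouse cluster 7 with FGF2 and NRG1 and 135 with PBS, the highest of any class in both. None of the 474 spiny mouse cells of cluster 7 gave a UMI, and the median level over all classes of those 4 libraries was 1.79 to 2.91 CPM.

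Among the enzymes, hexokinase 2 (Hk2), which traps glucose by phosphorylation, was highest in cluster 7 with the ERK inhibitor, at 100 CPM, and with the ErbB2 inhibitor, at 73.2 CPM. Aldoc, the brain-type aldolase, was highest in chondrocytes with the ErbB2 inhibitor (128 CPM), with the FGFR inhibitor (99.1) and with DMSO (82.5). Most cells of that class were, however, led by suprabasal keratinocyte markers with the ErbB2 inhibitor and with DMSO. With the FGFR inhibitor, fibroblast markers led 34 of its 85 cells and cartilage markers 20. In mouse chondrocytes Aldoc had 10.3 CPM with FGF2 and NRG1 and 0 with PBS, and the hair germ and outer bulge had most. Gapdh was nearly uncounted in the spiny mouse. It had 21 UMIs with the ERK inhibitor, 114 with the ErbB2 inhibitor, 63 with the FGFR inhibitor and 179 with DMSO, or 1.82 to 2.83 CPM of whole libraries. The mouse libraries had 701 CPM with FGF2 and NRG1 and 538 with PBS. Spiny mouse values of Gapdh are therefore left unread, and it is left out of the member counts of that species below. Eno1, an enolase, has a near-identical copy, Eno1b, with 159 UMIs with FGF2 and NRG1, 91 with PBS and 0 in every spiny mouse library, so its counts could be split between the 2 genes.

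Of the genes that steer the path, Pfkfb4, which makes the main activator of phosphofructokinase, was highest in cluster 7 in all 6 libraries. It had 123 CPM there with FGF2 and NRG1 and 116 with PBS, and in the spiny mouse 6.01 to 32.6 CPM on 2 to 5 UMIs per library. The lactate exporter Slc16a3, a HIF1A target, reached 269 CPM with FGF2 and NRG1 and 382 with PBS in cluster 7, and 129 CPM with the ERK inhibitor, 132 with the FGFR inhibitor and 21 with DMSO. Ldhb, the lactate dehydrogenase form of oxidative tissue, was higher in chondrocytes (191 to 271 CPM in the 3 larger spiny mouse libraries) than in suprabasal cells (12.5 to 19.3), where it was at the level of free RNA, meaning RNA that other cells release into the droplets. Cell types were clustered on all genes, so these contrasts between classes are descriptions.

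In the bead libraries of the mouse, the enzymes Tpi1, Gapdh, Pgk1, Eno1, Pkm and Ldha, which act between triose phosphate and lactate, were higher with FGF2 and NRG1 than with PBS in chondrocytes and in fibroblasts. In chondrocytes, 14 of 28 members with enough UMIs were higher and 4 were lower. Of all genes tested there, 13.8% were higher and 26.6% lower. The median ratio of the members was 0.67 and that of all genes −0.15. Taking the 3 members with no UMI in PBS cells at their bound, the median was 0.45 and 12 were higher. In fibroblasts, 8 of 23 members were higher and 5 lower, against 17.8% and 29.1% of all genes, with a median of 0.26 and an all-gene median of −0.15. The class held 248 chondrocytes with FGF2 and NRG1 against 36 with PBS, and 153 fibroblasts against 32.

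In chondrocytes, Pgk1, which makes the first ATP of the path (chromosome X, 106187100 to 106203699), had 854 UMIs or 293 CPM with FGF2 and NRG1, against 25 UMIs or 73.5 CPM with PBS, a ratio of 1.94 [1.43, 2.63]. Ldha, which reduces pyruvate to lactate (chromosome 7, 46841475 to 46855627), had 870 CPM against 341 with PBS, a ratio of 1.34 [1.08, 1.63]. Both intervals lie well above the 1.5-fold line. Pkm, the last kinase of the path, was at 866 CPM against 288 (1.57 [1.30, 1.89]), and Pfkl, the liver-type phosphofructokinase, at 109 CPM against 29.4 (1.76 [0.99, 2.96]). Gapdh had 875 CPM against 420 with PBS, Aldoa 614 against 309, Eno1 339 against 176 and Tpi1 226 against 123. Pgam1, the phosphoglycerate mutase, at 216 CPM against 150 (0.50 [0.12, 0.97]), and the early enzymes Hk1 (0.36 [−0.62, 2.06]) and Gpi1 (0.22 [−0.24, 0.80]) did not reach the line.

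The carriers and targets of low oxygen in these chondrocytes went both ways. Slc16a3 had 68 UMIs against 1 with PBS, a ratio of 2.01 [0.46, 8.32], and Slc2a1 had 109 against 3, a ratio of 1.68 [0.50, 4.39]. With every cell thinned to 1000 UMIs, Slc2a1 had 10 UMIs in 244 cells against 1 UMI in 34, or 41 CPM against 29.4, too few for a ratio. Car9, a carbonic anhydrase, had 52 UMIs with FGF2 and NRG1 and 0 with PBS, at least 2.03-fold higher. Ankrd37, a small ankyrin protein, had 34 against 0, at least 1.32-fold higher, and Aldoc 30 against 0, at least 1.17-fold. These bounds use a floor of 3 UMIs over the PBS class. By contrast Bnip3l, which marks mitochondria for removal, was lower at 126 CPM against 194 with PBS (−0.64 [−1.01, −0.22]), and its relative Bnip3 stood at 97.2 CPM against 103 (−0.12 [−0.59, 0.47]). Ddit4, an inhibitor of mTOR signalling, Ndrg1, a stress-induced gene, and Pdk1, the kinase that closes pyruvate dehydrogenase, were lower at −0.90, −0.73 and −0.60, each with an interval that holds 0.

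In fibroblasts, Ldha had 1244 UMIs or 656 CPM with FGF2 and NRG1, against 39 UMIs or 187 CPM with PBS, a ratio of 1.78 [1.35, 2.31]. Eno1 followed at 294 CPM against 91.0 (1.62 [1.03, 2.43]), Tpi1 at 271 against 86.2 (1.58 [0.98, 2.42]), Gapdh at 1106 against 398 (1.46 [1.16, 1.81]), Pgk1 at 317 against 120 (1.35 [0.83, 2.04]) and Pkm at 784 against 345 (1.17 [0.84, 1.55]). All 6 stood higher with FGF2 and NRG1 by more than the counting error. Pgam1 was called as well, at 187 CPM against 115 (0.65 [0.11, 1.36]), and Aldoa, at 417 CPM against 335, was not (0.30 [−0.04, 0.69]). Slc2a1 was lower here, with 26 UMIs or 13.7 CPM against 11 UMIs or 52.7 CPM with PBS (−2.01 [−3.01, −0.78]), as was Ldhb at 39.5 CPM against 101 (−1.40 [−2.06, −0.57]). Among cells with a ribosomal share of at least 8% these were −0.62 and −0.11, with 10 PBS cells left. Bnip3 (0.02 [−1.15, 2.24]) and Ddit4 (−1.07 [−2.27, 0.88]) rest on 4 and 5 PBS UMIs.

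**Figure D2:**
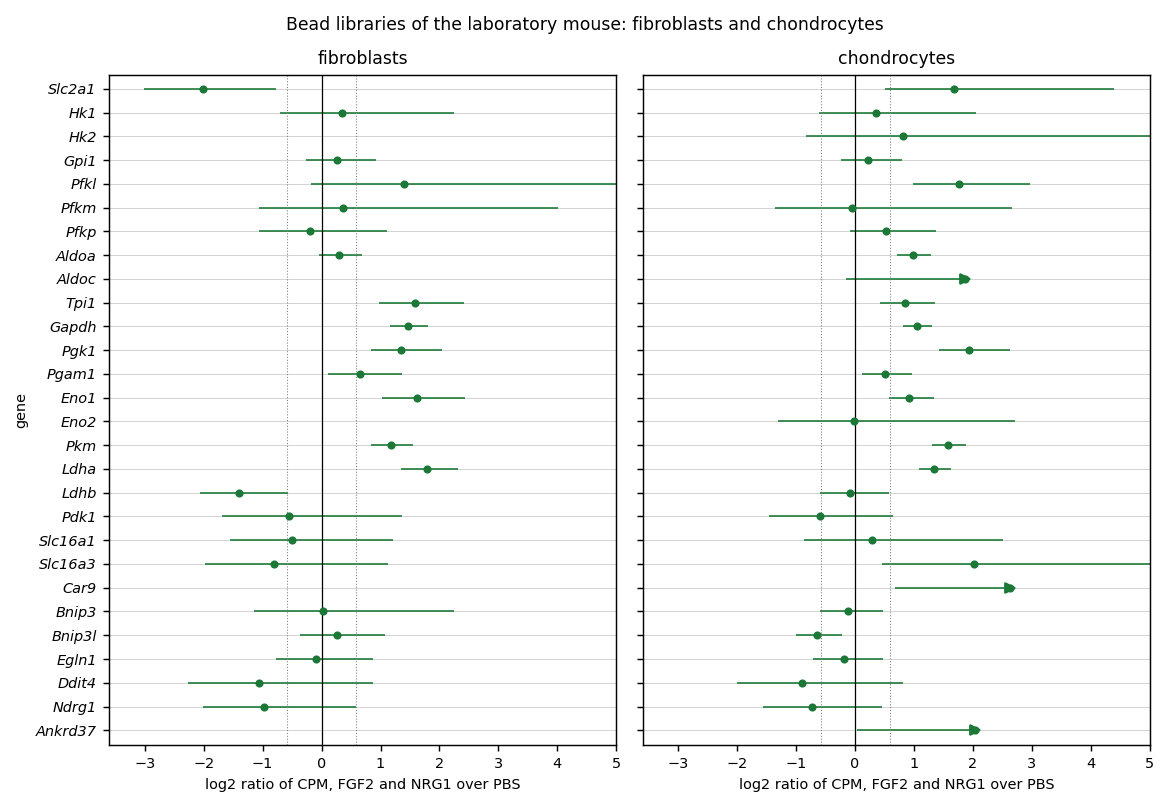
Log2 ratio of CPM, FGF2 and NRG1 over PBS, for each gene with at least 30 UMIs over both libraries, in mouse fibroblasts (left) and chondrocytes (right), with 95% counting intervals cut at the axis, arrows where PBS had 0 UMIs and dotted lines at 1.5-fold. Tpi1, Gapdh, Pgk1, Eno1, Pkm and Ldha lie to the right in both panels, while Slc2a1 lies left in fibroblasts and right in chondrocytes.

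Other features of these cells moved with the groups. Ribosomal protein genes took a median 12.8% of UMIs per fibroblast with FGF2 and NRG1 against 5.67% with PBS, and 11.6% against 7.07% per chondrocyte. Fibroblast markers took 1.70% of fibroblast UMIs against 7.34% with PBS, and Col3a1 alone had 4340 CPM against 21939. Cartilage markers led 215 of 248 chondrocytes with FGF2 and NRG1 but 18 of 36 with PBS, where basal keratinocyte markers took 0.653% of UMIs against 0.107%. The part of these features in the ratios was not tested. Between cells led by their own markers, Pgk1 in chondrocytes was at 1.92 and Ldha in fibroblasts at 1.64. Without ribosomal protein genes in the totals they were at 2.00 and 1.97, and among cells with a ribosomal share of at least 8% they were at 1.78 and 1.92. Cell by cell, 15 enzymes of the path together gave a median of 2.94 UMIs per 1000 in chondrocytes with FGF2 and NRG1 and 1.57 with PBS, and 2.29 against 1.38 in fibroblasts.

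Genes of the same pathway outside the list were mixed in these mesenchymal classes. Of 19 other HIF1A targets measured in chondrocytes, 7 were higher and 5 lower, beside 13.8% and 26.6% of all genes, with a median of 0.17. Higd1a, a mitochondrial protein induced by low oxygen, was at 1.36 [0.98, 1.84] and Vegfa, the vessel growth factor, at 1.26 [0.06, 3.97], while Tfrc, the transferrin receptor, was at −1.62 [−2.05, −1.13] and Bhlhe40, a repressor, at −1.06 [−1.64, −0.34]. In fibroblasts 1 was higher and 10 lower of 19, beside 17.8% and 29.1% of all genes, with a median of −0.59. Fam162a was the higher one at 1.62 [0.89, 2.76], and P4ha2, a collagen prolyl hydroxylase, was at −2.02 [−2.77, −1.15]. Hif1a itself was at 0.67 [0.22, 1.23] in chondrocytes. In the pentose phosphate path, 2 of 6 genes were higher in chondrocytes and 1 of 6 in fibroblasts, where Tkt, the transketolase, was at 1.32 [0.67, 2.26], and none was lower in either class.

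Cluster 7 and the suprabasal cells of the bead libraries showed few such differences. In cluster 7, 2 of 26 members were higher and 3 lower, against 15.2% and 8.86% of all genes, with a median of −0.08 and an all-gene median of 0.10. The platelet-type and liver-type phosphofructokinases had the lowest ratios. Pfkp had 46.7 CPM with FGF2 and NRG1 against 148 with PBS (−1.64 [−2.29, −1.06]) and Pfkl 29.7 against 57.2 (−0.93 [−1.82, −0.10]). Hk1, the housekeeping hexokinase, was at −0.67 [−1.32, −0.05], Aldoa at −0.53 [−0.73, −0.32], and Ldhb was higher at 1.06 [0.07, 2.35]. Slc2a1 (−0.04 [−0.49, 0.43]), Pgk1 (−0.40 [−0.75, −0.06]), Ldha (0.21 [−0.10, 0.52]) and Bnip3 (0.05 [−0.51, 0.64]) stayed inside the line. In the pentose phosphate path 3 of 5 genes were lower, among them Pgd and Taldo1, both at −0.80. In suprabasal cells 4 of 26 members were higher and 0 lower, against 3.54% and 5.17% of all genes, with a median of 0.12. Bnip3 had 12.4 CPM with FGF2 and NRG1 against 7.04 with PBS (0.81 [0.20, 1.44]), and Ndrg1 16.2 against 10.1 (0.68 [0.16, 1.21]), while in thinned cells Ndrg1 had 5 UMIs against 9. No member was called higher within any of the 4 clusters with at least 30 cells in both libraries. Together these clusters gave 30 UMIs of Bnip3 against 36 with PBS, a ratio of 0.23, and the other clusters, with 112 cells against 111, gave 22 against 6. Ndrg1 was at 0.32 in the 4 clusters and at 1.12 in the others. Pfkm and Slc16a1, the carrier that moves lactate either way, were called at 0.81 and 0.69 with intervals that hold 0. Pgk1, at 97.3 CPM against 77.6 (0.33 [0.13, 0.52]), Ldha (0.18 [0.06, 0.29]) and Slc2a1 (0.08 [−0.26, 0.42]) stayed inside the line.

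The ERK inhibitor library stood apart in cluster 7. There 10 of 12 members were higher than with DMSO and 0 were lower, against 25.7% and 44.9% of all genes, with a median of 0.94 and an all-gene median of −0.39. Slc2a3 had 113 UMIs or 405 CPM against 13 UMIs or 39.1 CPM with DMSO, a ratio of 3.28 [2.54, 4.33]. Slc16a3 had 129 CPM against 21 (2.46 [1.43, 4.03]), Hk2 100 against 24 (1.94 [0.89, 3.41]) and Gpi1, which turns glucose 6-phosphate into fructose 6-phosphate, 875 against 292 (1.58 [1.24, 1.94]). Aldoa, Pkm, Pgam1, Ldha, Bnip3l and Eno1 were higher at 0.61 to 1.12, and Tpi1 (0.36 [−0.04, 0.76]) and Pgk1 (0.12 [−0.33, 0.57]) were not. Of 6 pentose phosphate genes 5 were higher, with Tkt at 1.16 [0.95, 1.38] and G6pdx, which opens that path, at 1.07 [0.44, 1.76]. Hif1a was at 1.54 [0.70, 2.56] and Hk3, the hexokinase of white blood cells, at 3.16 [2.06, 5.08]. Fam162a (−4.6 [−6.11, −3.72]) and Mif (−2.72 [−3.30, −2.25]) were the lowest of the other HIF1A targets.

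The cells of this cluster differed between both libraries in ways that go beyond these genes. Neutrophil markers took 28.5% of UMIs with the ERK inhibitor against 3.17% with DMSO, suprabasal keratinocyte markers 0.10% against 3.82%, and ribosomal protein genes a median of 3.68% against 13.0%. Cells held a median of 5167 UMIs against 1192. The part of these differences in the ratios was not tested as a whole. Between the 54 and 79 cells led by neutrophil markers, 8 members were higher and 0 lower, the median was 0.78, Slc2a3 was at 2.01 and Ldha at 0.47. Without ribosomal protein genes in the totals 6 were higher, with a median of 0.61.

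With the other inhibitors, cluster 7 gave few calls. With the ErbB2 inhibitor 1 of 10 members was higher and 0 lower (background 17.7% and 16.3%), with a median of −0.03 and Eno1 at −0.44 [−0.87, −0.05]. With the FGFR inhibitor 2 of 9 were higher and 0 lower (background 24.8% and 21.7%), with a median of 0.35. There Pgam1 had 263 CPM against 87.2 with DMSO (1.60 [0.79, 2.39]) and Bnip3l 338 against 198 (0.79 [0.14, 1.38]). Ldha was at −0.27 [−0.72, 0.13] with the ErbB2 inhibitor and at 0.35 [−0.05, 0.71] with the FGFR inhibitor, and Pgk1 at −0.28 [−0.99, 0.32] and −0.29 [−1.07, 0.33].

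Spiny mouse fibroblasts gave no member past the line by more than counting error. With the ErbB2 inhibitor 0 of 20 were higher and 5 lower (background 11.6% and 8.08%), with a median of −0.09 and an all-gene median of 0.08. The 5 were Hk2, Pdk1, Slc16a1, Slc16a3 and Ndrg1, at −0.83 to −0.61 on 11 to 19 UMIs with the inhibitor, and all of their intervals hold 0. Bnip3 was at 105 CPM against 73.5 with DMSO (0.50 [0.08, 0.94]), inside the line. Pgam1 was at 152 CPM against 192 (−0.34 [−0.65, −0.04]). With the FGFR inhibitor 0 of 19 were higher and 0 lower (background 11.9% and 9.3%), with a median of 0.19 over 38 cells. Ldha stood at 680 CPM with the ErbB2 inhibitor, 826 with the FGFR inhibitor and 664 with DMSO (0.03 [−0.12, 0.18] and 0.32 [0.11, 0.52] against DMSO), and Pgk1 at 252, 230 and 294 CPM. Both inhibitors gave a ratio above the line for Plod2, a collagen lysyl hydroxylase and HIF1A target outside the list, at 2.09 [1.38, 3.01] with the ErbB2 inhibitor and 1.67 [0.58, 2.74] with the FGFR inhibitor.

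In spiny mouse chondrocytes the ErbB2 inhibitor library had 3 of 19 members higher and 1 lower (background 13.5% and 10.6%), with a median of 0.03, and 0 of 19 in either direction with the FGFR inhibitor (background 12.8% and 11.7%), also with a median of 0.03. Pdk4 is described below. Bnip3 had 163 CPM with the ErbB2 inhibitor against 96.9 with DMSO (0.75 [0.29, 1.19]), Aldoc 128 against 82.5 (0.64 [0.13, 1.13]) and Pfkm, the muscle-type phosphofructokinase, 23.8 against 50.9 (−0.99 [−2.18, −0.14]). In the 18 and 32 cells led by cartilage markers Bnip3 had 8 UMIs against 19 (−0.48 [−1.98, 0.68]), and in the other cells of the class 67 against 82 (1.01 [0.52, 1.49]). Ldha was at −0.24 [−0.50, 0.01] with the ErbB2 inhibitor and −0.06 [−0.34, 0.19] with the FGFR inhibitor, and Pgk1 at −0.24 [−0.60, 0.09] and −0.21 [−0.61, 0.15]. Ldhb had 271 CPM with the ErbB2 inhibitor and 269 with the FGFR inhibitor, against 191 with DMSO (0.51 [0.17, 0.83] and 0.50 [0.13, 0.85]). Outside the list, Bsg, the partner protein of lactate carriers, was at 1.35 [1.24, 1.47] with the ErbB2 inhibitor.

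In suprabasal cells the glycolytic enzymes differed little from DMSO. With the ERK inhibitor 4 of 26 members were higher and 1 lower (background 12% and 13.5%), with a median of 0.20 and an all-gene median of 0.02. With the ErbB2 inhibitor 1 of 28 was higher and 5 lower (background 5.28% and 12.6%), with a median of −0.20 and an all-gene median of −0.09. With the FGFR inhibitor 0 of 26 were higher and 1 lower (background 4.75% and 10.8%), with a median of −0.18 and an all-gene median of −0.06. Ldha stood at 575 CPM with the ERK inhibitor, 512 with the ErbB2 inhibitor, 501 with the FGFR inhibitor and 597 with DMSO, and Pgk1 at 313, 275, 255 and 307 CPM. Slc2a1 was at 2.02 to 3.1 CPM in all 4.

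The single genes that passed the line were these. With the ERK inhibitor Hk1 had 44.5 CPM against 24.1 with DMSO (0.89 [0.58, 1.18]) and Pgam1 167 against 104 (0.69 [0.54, 0.84]). Ndrg1 was lower at 21.3 CPM against 34.9 (−0.69 [−1.14, −0.32]), but at 0.38 in thinned cells and 0.67 with every cell given the same weight. It was at the level of free RNA there with the ERK inhibitor. Ddit4 was called higher at 0.73 on 9 UMIs, with an interval that holds 0. With the ErbB2 inhibitor Slc16a3 had 10 UMIs against 24 (−1.37 [−2.67, −0.33]), Ankrd37 3.03 CPM against 6.27 (−1.04 [−1.49, −0.61]), Pfkp 18.6 against 29.6 (−0.67 [−0.86, −0.49]) and Ldhb 12.5 against 19.3 (−0.62 [−0.85, −0.40]). With the FGFR inhibitor only Ankrd37 was called over the whole class, at 4.08 CPM against 6.27 (−0.61 [−1.11, −0.15]). Within single clusters, 5 of 21 members were lower with this inhibitor in cluster 5, 5 of 21 in cluster 15 and 3 of 21 in cluster 27, with 0 higher. Cluster 9 had 2 higher and 1 lower of 25, and cluster 13 had 1 and 0 of 21. Cluster 35 had 1 and 2 of 14, and cluster 10 had 0 and 1 of 11. The share of all genes within single clusters was not computed. Ndrg1 was at −0.97 [−1.66, −0.39] in cluster 5 and −1.31 [−2.39, −0.52] in cluster 15, and Pfkl at −1.06 [−1.98, −0.34] in cluster 15 and −1.05 [−2.34, −0.07] in cluster 27. Bnip3 (0.35, −0.07 and −0.23 with the ERK, ErbB2 and FGFR inhibitor), Egln3 (0.49, 0.24 and 0.25) and Ddit4 with the ErbB2 and FGFR inhibitors (0.15 and 0.03) stayed inside the line. So did Bnip3l at 0.34 [0.24, 0.44] with the ErbB2 inhibitor and 0.37 [0.26, 0.48] with the FGFR inhibitor, Pfkl at −0.48 [−0.70, −0.26] with the FGFR inhibitor and Pdk1 at 0.48 [0.17, 0.76] with the ERK inhibitor. Outside the list, Hmox1, the haem oxygenase, was at 4.91 [4.34, 5.60], 1.19 [0.58, 1.90] and 0.98 [0.24, 1.76] with the same inhibitors, and Mxi1, a MYC antagonist, at 0.95, 1.17 and 0.67.

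Counts for the rest of the pathway are given beside the share of all genes tested. Of the other HIF1A targets, 2 were higher and 3 lower of 15 in suprabasal cells with the ERK inhibitor, 2 and 1 of 16 with the ErbB2 inhibitor, and 2 and 2 of 16 with the FGFR inhibitor. Of all genes there, 12%, 5.28% and 4.75% were higher and 13.5%, 12.6% and 10.8% lower, in the same order. In spiny mouse chondrocytes the counts were 2 higher and 2 lower of 13 with the ErbB2 inhibitor and 3 and 2 of 13 with the FGFR inhibitor. The shares of all genes there were 13.5% and 10.6% with the ErbB2 inhibitor, and 12.8% and 11.7% with the FGFR inhibitor. In spiny mouse fibroblasts the counts were 4 and 0 of 14 and 3 and 0 of 11, in the same order of inhibitors. The shares of all genes there were 11.6% and 8.08%, and 11.9% and 9.3%. The HIF system itself (Hif1a and its partners and regulators) had at most 1 gene higher and 2 lower in any class and comparison. The 2 lower were of 6 in mouse chondrocytes, beside 26.6% of all genes, and of 4 in mouse fibroblasts, beside 29.1%. The other isozymes of glycolysis had at most 2 higher, of 2 in cluster 7 with the ERK inhibitor, beside 25.7% of all genes. At most 3 were lower, of 6 in suprabasal cells with the ErbB2 inhibitor, beside 12.6%. The genes that set the fate of pyruvate had at most 2 higher, of 6 in chondrocytes with the ErbB2 inhibitor, beside 13.5% of all genes. At most 3 were lower, of 10 in mouse chondrocytes, beside 26.6%. In the pentose phosphate path 4 of 6 were higher in cluster 7 with the FGFR inhibitor, beside 24.8% of all genes there, with Rpia at 1.30 [0.16, 2.37] and Pgd at 1.18 [0.84, 1.51]. Neutrophil markers led 79.8% of these cells against 34.8% with DMSO, and the part of this in the ratios was not tested.

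Some members had too few UMIs for a ratio in most places. Adm passed the minimum only in suprabasal cells with the ErbB2 inhibitor, where it was at −0.94 [−2.14, 0.10], Car9 and Eno2, the neuronal enolase, only in mouse chondrocytes, and Pfkfb3 and Pfkfb4 only in mouse cluster 7 (0.08 [−0.53, 0.74] and 0.07 [−0.40, 0.57]). Egln3, the oxygen sensor that is itself induced by low oxygen, passed in suprabasal cells of all 4 comparisons and in mouse cluster 7, and was called in none of these 5.

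**Figure D3:**
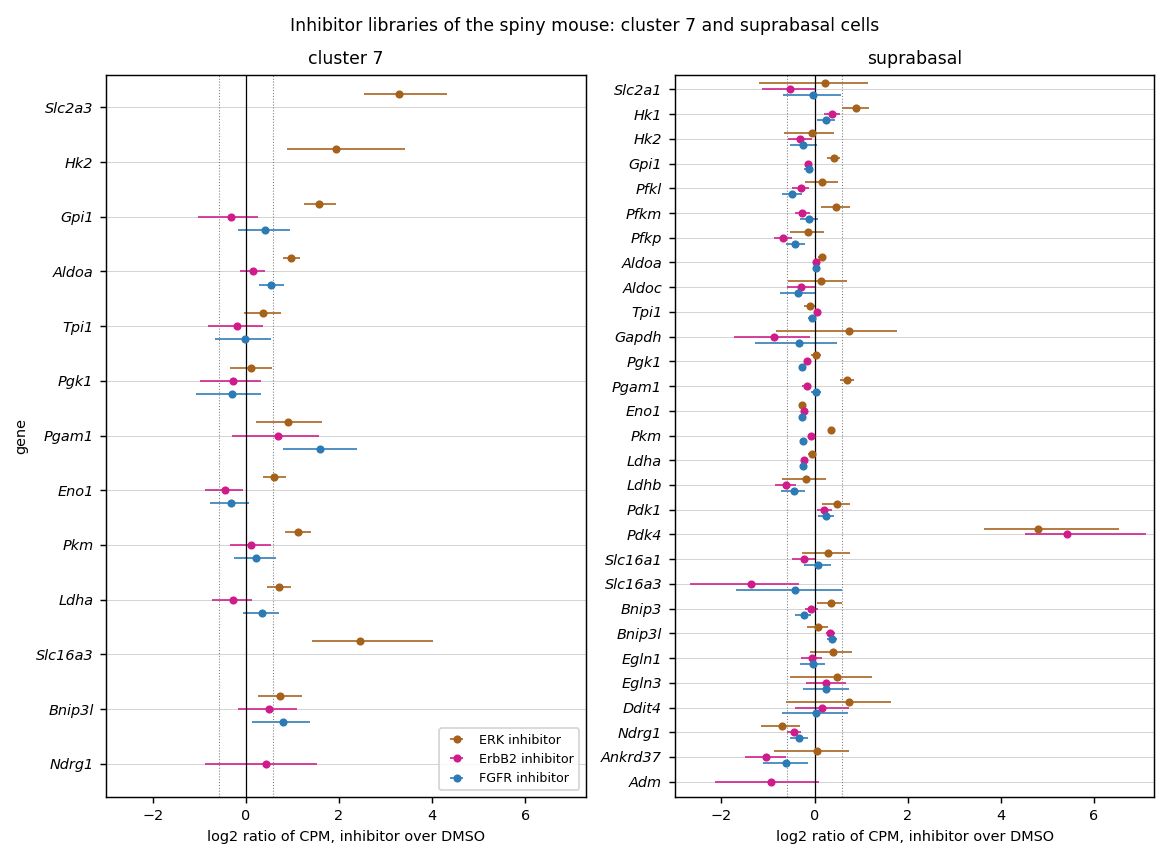
Log2 ratio of CPM, inhibitor over DMSO, for each gene with at least 30 UMIs over both libraries, in cluster 7 (left) and suprabasal cells (right) of the spiny mouse, with 95% counting intervals and dotted lines at 1.5-fold. In cluster 7 the ERK inhibitor points lie to the right, up to 3.28 for Slc2a3, and in suprabasal cells most points lie within the lines while Pdk4 lies at 4.80 and 5.43.

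Pdk4 gave the largest ratios of any member, and across several cell classes. It encodes a kinase that shuts pyruvate dehydrogenase, as in fasting, and so holds pyruvate out of the mitochondrial path (chromosome 6, 5483351 to 5496309). In the sebaceous gland it had 2284 UMIs or 234 CPM with the ErbB2 inhibitor, 47 UMIs or 59.9 CPM with the ERK inhibitor and 109 UMIs or 25 CPM with the FGFR inhibitor, against 138 UMIs or 16.4 CPM with DMSO. The ratios were 3.83 [3.59, 4.10], 1.89 [1.36, 2.36] and 0.61 [0.23, 0.98]. In the hair germ and outer bulge it had 255 CPM with the ErbB2 inhibitor and 149 with the ERK inhibitor, against 5.77 with DMSO (5.35 [4.62, 6.48] and 4.59 [3.73, 5.78]). In interfollicular basal cells it had 61.1 CPM with the ErbB2 inhibitor and 17.2 with the ERK inhibitor, against 1.02 with DMSO. In endothelium the order of the inhibitors was the other way, with 207 CPM with the ERK inhibitor and 48.6 with the ErbB2 inhibitor, against 3.01 with DMSO (5.97 [4.99, 7.41] and 3.87 [2.93, 5.30]). For basal cells and endothelium with the ErbB2 inhibitor, the limit set by free RNA is given below.

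In suprabasal cells Pdk4 had 24 UMIs with the ERK inhibitor, 342 with the ErbB2 inhibitor, 4 with the FGFR inhibitor and 6 with DMSO, and the first 2 gave ratios of 4.80 [3.63, 6.54] and 5.43 [4.52, 7.11]. Every suprabasal cluster with at least 30 UMIs was higher with the ErbB2 inhibitor, with 95 UMIs against 0 in cluster 13 and 63 against 2 in cluster 15. A Pdk4 UMI was found in 9.38% of suprabasal cells with the ErbB2 inhibitor against 0.217% with DMSO, at median depths of 8177 and 5742 UMIs. In the same ErbB2 inhibitor library, 3.88% of cluster 7 cells, which held a median of 1125 UMIs, and 3.91% of T cells also gave one. Their levels, 32.6 and 36 CPM, were above the 15 CPM of suprabasal cells. By these levels the suprabasal value with this inhibitor was not told apart from free RNA, and neither was the 9.59 CPM of fibroblasts. How the depth of cells shapes the share of free RNA in a class was not tested. The intervals of T cells [18, 64.4] and cluster 7 [8.87, 83.3] also reach the 61.1 CPM of basal cells and the 48.6 CPM of endothelium. Clusters 3 and 23, outside the named classes, had 72.2 and 61.5 CPM in that library. Dendritic cells, at 16.1 CPM [5.22, 37.5], and resident macrophages, at 16.5 CPM [8.51, 28.8], lay lower there than basal cells and endothelium. A Pdk4 UMI was found in 19.6% of basal cells and 9.51% of endothelial cells with this inhibitor. Other classes thus lay on both sides, and the part of free RNA in basal cells and endothelium was not tested. With the ERK inhibitor resident macrophages had 0 UMIs, which allows up to 8.98 CPM, beside 9.29 CPM in suprabasal cells.

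In chondrocytes Pdk4 had 57 UMIs or 124 CPM with the ErbB2 inhibitor and 9 UMIs or 25.5 CPM with the FGFR inhibitor, against 11 UMIs or 10.6 CPM with DMSO, and the ErbB2 inhibitor ratio was 3.45 [2.60, 4.63]. Of these UMIs, 57 against 10 came from the cells not led by cartilage markers, 118 against 266 cells. The 18 and 32 cells led by cartilage markers gave 0 and 1 UMIs, too few to compare. With the ErbB2 inhibitor the interval of the chondrocyte level [93.5, 160] overlaps that of cluster 3 [51.5, 98.3]. The part of free RNA in the chondrocyte level was not tested. In both bead libraries Pdk4 had 0 to 5 UMIs in each of the 4 classes.

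**Figure D4:**
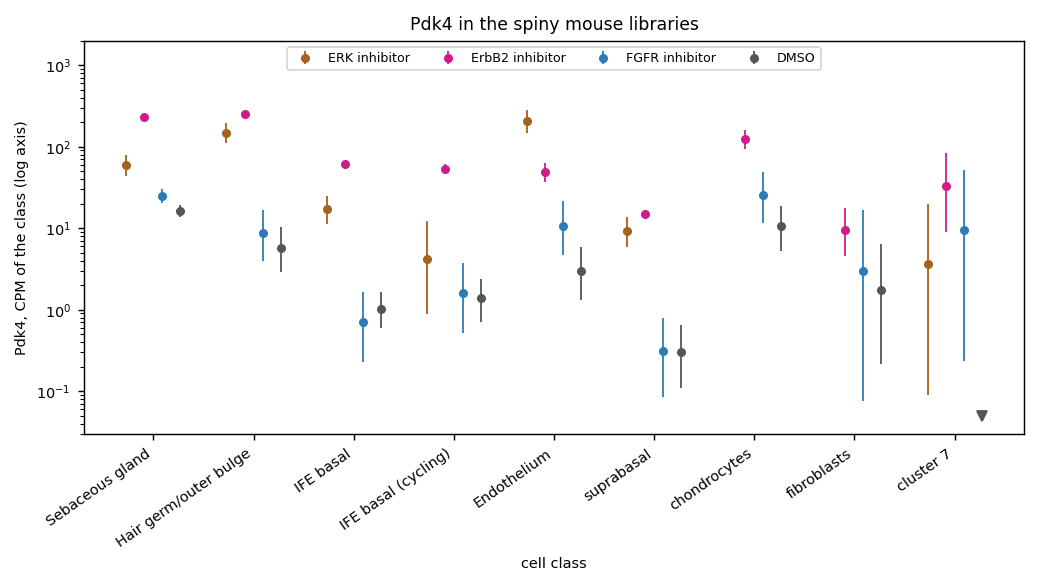
Pdk4 level by cell class in the 4 spiny mouse libraries, in CPM on a log axis, with exact 95% Poisson intervals, classes with fewer than 30 cells in a library left out and a triangle at 0 UMIs in cluster 7 with DMSO. The ErbB2 inhibitor points lie above DMSO in every class shown, from 9.59 CPM in fibroblasts to 255 in the hair germ, and the ERK inhibitor point is highest in endothelium at 207.

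In DMSO wounds the highest summed level of the members was found in a small group of cells annotated as suprabasal but kept out of that class. Cluster 46 held 24 cells with the ErbB2 inhibitor, 27 with the FGFR inhibitor and 82 with DMSO, and 0 in the other 3 libraries. None of its 10 leading genes was a suprabasal marker, and among them were the matrix metalloproteinases Mmp9 and Mmp13 and the interleukin Il19. In the DMSO library the members without Gapdh summed to 10845 CPM [10612, 11083] there, the highest of 23 classes, against 3620 CPM in the suprabasal class and 6207 in the sebaceous gland, which came next.

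Set against the suprabasal class of its own library, cluster 46 had 21 of 27 members at least 1.5-fold higher with the ErbB2 inhibitor, 21 of 26 with the FGFR inhibitor and 23 of 27 with DMSO, with medians of 1.72, 1.56 and 1.60. Of all genes tested, 49.6%, 43.5% and 37.9% were higher in the same 3 libraries, with medians of 0.57, 0.44 and 0.36. Lower by as much were 1, 0 and 1 members, and 13.2%, 15.3% and 14.4% of all genes. The exporter Slc16a3 had the largest ratio in each, at 7.26 [6.18, 8.58], 6.03 [5.00, 7.28] and 6.30 [5.66, 7.07]. In DMSO cells it had 73 UMIs or 96.7 CPM in cluster 46 against 24 UMIs or 1.19 CPM in suprabasal cells. The importer Slc2a1 had 42.4 CPM there against 2.94 (3.87 [3.18, 4.5]), and in DMSO this was the highest level of any class. Of the enzymes Tpi1, at 1613 CPM against 208 (2.96 [2.86, 3.05]), differed most. Ldha had 1615 CPM against 597 (1.44 [1.35, 1.52]) and Pgk1 662 against 307 (1.11 [0.97, 1.24]).

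The low-oxygen targets were high in cluster 46 as well. In DMSO cells Bnip3 had 470 CPM against 40.5 in suprabasal cells (3.54 [3.35, 3.72]), Ankrd37 58.3 against 6.27 (3.24 [2.69, 3.72]), Ndrg1 248 against 34.9 (2.83 [2.59, 3.06]), and Adm, the vessel-dilating peptide adrenomedullin, 25.2 against 1.05 (4.6 [3.61, 5.56]). Bnip3 and Ankrd37 repeated this with the ErbB2 inhibitor (3.17 and 3.94) and the FGFR inhibitor (3.18 and 4.08). In DMSO cells Pfkm (−0.07 [−0.86, 0.50]) and Egln1 (0.41 [−0.58, 1.08]) were among those with intervals that hold 0, and Ldhb, at −0.70 [−2.08, 0.13], was the 1 member called lower there. The cluster was defined on all genes, these among them, so the contrast describes the cells and tests nothing. The suprabasal class it was set against was itself uneven. In DMSO its cluster 9 had 1013 CPM of Ldha, 481 of Tpi1, 512 of Pgk1, 94.1 of Bnip3 and 9.45 of Slc2a1. Each of these levels lay between that of the whole class and that of cluster 46. The other cluster kept out of the class, cluster 21, showed less, with 10 of 26 members higher with the ErbB2 inhibitor (674 cells, background 30.5%), 11 of 25 with the FGFR inhibitor (22 cells, background 41.1%) and 3 of 25 with DMSO (149 cells, background 25.8%). In that cluster 1, 1 and 2 members were lower, beside 6.71%, 7.63% and 5.56% of all genes.

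**Figure D5:**
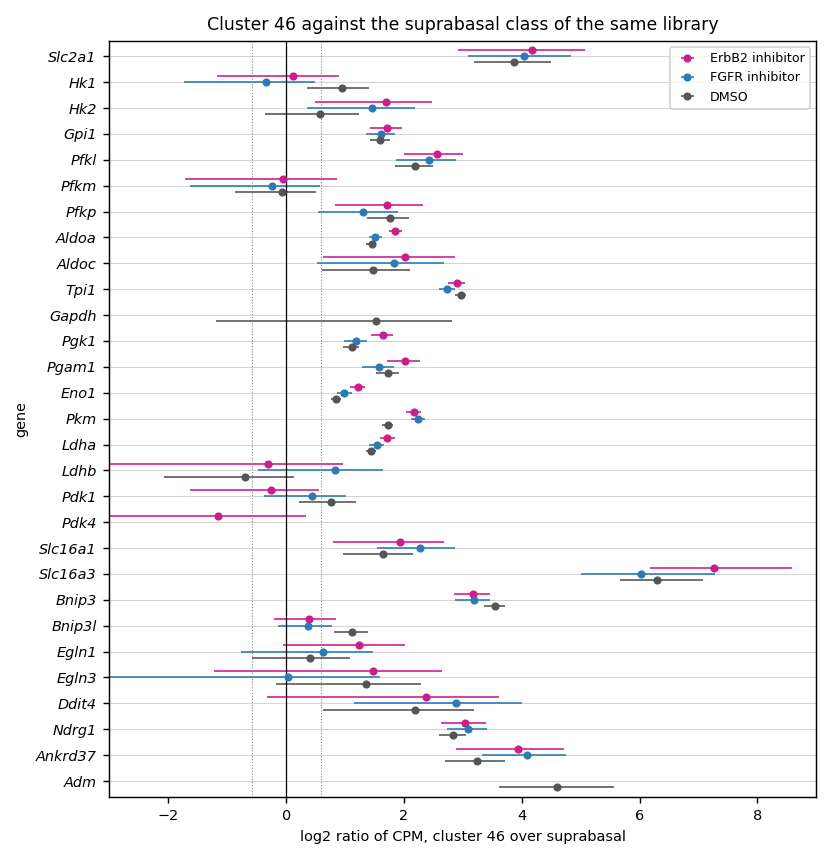
Log2 ratio of CPM in cluster 46 over the suprabasal class of the same library, for each gene with at least 30 UMIs over both, in the ErbB2 inhibitor (24 cells), FGFR inhibitor (27 cells) and DMSO (82 cells) libraries, with 95% counting intervals cut at the axis and dotted lines at 1.5-fold. Slc16a3 lies farthest right at 6.03 to 7.26, and Pfkm lies at −0.24 to −0.05.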

How the data were processed

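The authors deposited a table of raw UMI counts per gene and cell, with library, cluster number and cell type name in a second table that also holds each cell's percent of UMIs from mitochondrial, haemoglobin and ribosomal protein genes, per the file headers. The submitters' processing notes name Cell Ranger 6.1.1 and the builds GRCm38 and mm10. The sources used here do not say how spiny mouse reads were aligned, which cells were filtered out or whether doublets were removed, and no doublet caller was run. All 39577 cells summed to their deposited totals, 0 rows lacked a gene name and 0 columns were left unused.

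Sums of counts over the cells of a class in each library were made with python 3.11.15, numpy 2.4.6, pandas 2.3.3 and scipy 1.17.1, and drawn with matplotlib 3.10.9. A ratio between libraries needed 30 cells in both, and rankings of classes cover those with at least 30 cells in the library. Intervals are exact (Poisson for levels, conditional binomial for ratios). UMIs were read as molecules, so intervals and floors of 3 UMIs cover counting error only. A cluster kept its authors' name unless another marker list held more of its 10 leading genes. A level was called that of free RNA where it lay less than 3-fold above the lowest other class and more than 10-fold under the highest class. The computation was checked on simulated data. Alternatives were a 2-fold threshold, no minimum, other scaling, another added count, thinning to 1000 UMIs, equal weight of cells, marker-led cells, all clusters of a name, the control library's cluster mix, and, chosen after seeing the data, omission of the deepest cell or of ribosomal protein genes from the totals, a minimum ribosomal share of 8%, spiny mouse counts without Gapdh, and splits of chondrocytes by leading markers and of mouse suprabasal cells by cluster.

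Members and lists (the other HIF1A targets, the HIF system, other isozymes, the fate of pyruvate and the pentose phosphate path) were chosen with earlier results of these data known. Named in each class and comparison were the 4 highest and 4 lowest member ratios whose interval leaves out 0, and Slc2a1, Pgk1, Ldha, Pdk4, Bnip3, Egln3 and Ddit4 where they passed the minimum. Gene positions are those of GENCODE vM21 on GRCm38. The values of 1 gene outside the member list are not reported here.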

Additional observations from a re-analysis of the deposited data

Results flagged for a closer look

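Slc2a1 differed in direction between classes of the bead libraries, with a log2 ratio of FGF2 and NRG1 over PBS of 1.68 in chondrocytes and −2.01 in fibroblasts. Ldhb was at 1.06 in cluster 7 and −1.40 in fibroblasts. Pfkl was at 1.76 in chondrocytes and −0.93 in cluster 7. Each gene passed 1.5-fold in opposite directions, with counting intervals that leave out 0, but the difference between classes was not tested, since each group was 1 library. Among cells with a ribosomal share of at least 8%, Ldhb in fibroblasts was at −0.11, inside the line, and Slc2a1 at −0.62. In chondrocytes Slc2a1 rests on 3 PBS UMIs.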

How the results depend on the processing

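Over the 4 classes, the median ratio of the members shifted in each of 125 recomputations by no more than the median half-width of the members' counting intervals, which is wide (0.60 in mouse chondrocytes, 0.82 in mouse fibroblasts). It was 0.32 to 0.90 in mouse chondrocytes and 0.58 to 1.32 in cluster 7 with the ERK inhibitor, and in mouse fibroblasts 0.55 over all clusters of the name but −0.05 with no minimum on UMIs, where its sign was not kept. Counts of 5 or more members, Gapdh included, moved by over 1.5 times or to 0 as follows. For the smaller counts, 31 recomputed values of higher members and 34 of lower members also moved by over 1.5 times, or to or from 0, and are not listed. With the ERK inhibitor, the 10 higher in cluster 7 became 5 at 2-fold and 6 without ribosomal protein genes in the totals, and the 5 higher in suprabasal cells became 1 at 2-fold, 9 with no minimum, 8 in thinned cells, 8 with equal weight of cells, 3 in marker-led cells and 3 over all clusters of the authors' name. With the ErbB2 inhibitor, the 5 lower in fibroblasts became 0 at 2-fold, 9 with no minimum, 1 in thinned cells, 2 in marker-led cells and 2 over all clusters of the name, and the 6 lower in suprabasal cells became 2 at 2-fold and 1 in thinned cells. With FGF2 and NRG1, the 14 higher in chondrocytes became 7 and the 8 higher in fibroblasts 4 in thinned cells, and the 5 lower in fibroblasts became 3 at 2-fold, 13 with no minimum and 0 in thinned cells. Thinned sums hold fewer UMIs, so fewer members pass the minimum, and the cause of the other shifts was not tested. Of the recomputed ratios of single members, 709 stayed inside the counting interval of the main ratio, which is wide for sparse members. A further 76 fell outside it, and 6 changed the sign of a ratio past 1.5-fold. Sign changes of smaller ratios were not counted apart. The 6 were Ndrg1 in suprabasal cells with the ERK inhibitor (0.38 thinned, 0.67 with equal weight) and with FGF2 and NRG1 (−0.64 thinned), Pdk4 (−0.33) and Bnip3 (−0.48) in marker-led chondrocytes with the ErbB2 inhibitor, and Slc2a1 in thinned mouse chondrocytes (−0.38). For Pdk4, at 0 against 1 UMI, and Slc2a1, at 41 CPM against 29.4 on 11 UMIs, the sums are too small to give a direction, and for Slc2a1 the sign comes from the added UMI. No paired analysis was possible because each group is 1 library and the labels carry no replicate numbers. The PBS classes of 32 fibroblasts and 36 chondrocytes and the ERK inhibitor library of 631 cells limit precision, and 1 deep PBS chondrocyte held 9.86% of the UMIs of its class. Between any 2 libraries, treatment, animal and preparation cannot be told apart.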

Other observations

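Outside the 4 classes, the sebaceous gland had the highest levels of Ldhb and of the lactate carrier Slc16a1 in all 6 libraries, at 410, 450, 420 and 420 CPM of Ldhb with the ERK, ErbB2 and FGFR inhibitors and DMSO, and 579 with FGF2 and NRG1 and 508 with PBS. The members without Gapdh summed to 6207 to 6635 CPM there in the spiny mouse. Among classes of at least 30 cells this was the highest of 19 with the ErbB2 inhibitor and of 18 with the FGFR inhibitor. Cluster 46, with 24 and 27 cells in these libraries, was too small to be ranked, so its order against the sebaceous gland is not given. In endothelium, Ndrg1 was highest of all classes in all 6 libraries, at 938 CPM with the ERK inhibitor, 383 with the ErbB2 inhibitor, 425 with the FGFR inhibitor and 269 with DMSO, and 211 with FGF2 and NRG1 and 232 with PBS. With the ERK inhibitor, endothelium also had the highest levels of Bnip3 (529 CPM) and Adm (150 CPM) in that library, on 44 cells.

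With the ERK inhibitor, resident macrophages had 11 of 17 members higher and 1 lower than with DMSO, against 24.9% and 21.1% of all genes tested, with a median ratio of 0.81 beside 0.08 over all genes tested, on 33 cells against 410. Their members without Gapdh summed to 6756 CPM with the ERK inhibitor and 3990 CPM with DMSO. The ERK inhibitor library had 631 cells and a median of 6915 UMIs per cell, against 15363 cells and 3125 UMIs with DMSO, and the part of depth in these levels was not tested.

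In the mouse, dendritic cells had 304 CPM of Pfkfb3, which makes the activator of phosphofructokinase, with FGF2 and NRG1, against 74.9 CPM in cluster 7, the next class. This rests on 38 dendritic cells, and the PBS library held fewer than 30. These contrasts between classes were noticed in the data, rest on 1 library each and were not tested.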
